A study of Mus musculus with 9 samples.

Results

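Disallowed genes are genes that most tissues express but mature pancreatic beta cells keep at a low level. A set of 8 genes was examined here in islets that lack *Raptor* in beta cells: *Ldha*, *Ldhb*, *Slc16a1*, *Acot7*, *Oat*, *Ndrg2*, *Cxcl12* and *Zfp36l1*. They were taken by symbol, with every probe set that the platform annotation pairs with exactly 1 of these genes, which gave 15 probe sets of 34945 with 1 gene and 8 genes of 18193. The KO islets came from male mice aged 8 weeks that were *Raptor* flox/flox and carried RIP-Cre, a Cre transgene under the rat insulin promoter (βRapKO). The WT islets came from littermates of the same sex and age that were also *Raptor* flox/flox but had no Cre, so floxed alleles were common to the groups and Cre itself had no control. Strain is given as C57BL/6, although the Cre line had a mixed background. Each array (Affymetrix Mouse Genome 430 2.0) held RNA pooled from the islets of 5 animals, with 4 KO and 5 WT arrays, and values are log2 signals.

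For the lactate genes, a low level in beta cells is tied to how the cell senses glucose. Lactate dehydrogenase interconverts pyruvate and lactate, and the monocarboxylate transporter encoded by *Slc16a1* (MCT1) carries both across the plasma membrane. In a beta cell with little of either, pyruvate made from glucose enters the mitochondria, and circulating pyruvate and lactate, which rise in exercise, do not trigger insulin release. The other members belong to other processes: acyl-CoA hydrolysis (*Acot7*), ornithine breakdown (*Oat*), growth restraint (*Ndrg2*), chemokine signalling (*Cxcl12*) and mRNA decay (*Zfp36l1*).

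Sequence around the start sites differed between the lactate genes, so the windows of *Ldha*, *Ldhb* and *Slc16a1* are printed, with that of *Oat* for the members that rose. RefSeq windows of GRCm38.p6 run from 250 bases before to 50 bases after the start, 300 bases in all, and all 8 members had at least 1. Capitals mark 4 motifs, searched on both strands. One form of the core of a hypoxia response element reads ACGTG, and other forms were not searched. An E-box, which holds that core, reads CACGTG. A cAMP response element of the palindromic kind is spelled TGACGTCA. The TATA box was searched as TATAAA. The first *Ldha* window lies at chr7:46845554-46845853 (+ strand), *Ldhb* at chr6:142507908-142508207 (- strand), *Slc16a1* at chr3:104638414-104638713 (+ strand) and *Oat* at chr7:132576349-132576648 (- strand).
Ldha: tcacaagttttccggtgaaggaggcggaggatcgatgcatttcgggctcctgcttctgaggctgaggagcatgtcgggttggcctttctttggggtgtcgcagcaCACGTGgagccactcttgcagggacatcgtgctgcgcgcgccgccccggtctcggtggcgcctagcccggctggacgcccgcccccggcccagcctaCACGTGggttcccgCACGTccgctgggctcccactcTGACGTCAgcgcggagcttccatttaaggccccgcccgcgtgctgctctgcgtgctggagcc
Ldhb: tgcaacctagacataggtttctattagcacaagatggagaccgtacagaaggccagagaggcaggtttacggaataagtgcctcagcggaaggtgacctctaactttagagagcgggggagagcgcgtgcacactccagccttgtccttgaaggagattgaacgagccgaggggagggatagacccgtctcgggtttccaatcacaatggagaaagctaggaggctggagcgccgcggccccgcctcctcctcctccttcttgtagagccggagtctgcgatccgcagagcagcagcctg
Slc16a1: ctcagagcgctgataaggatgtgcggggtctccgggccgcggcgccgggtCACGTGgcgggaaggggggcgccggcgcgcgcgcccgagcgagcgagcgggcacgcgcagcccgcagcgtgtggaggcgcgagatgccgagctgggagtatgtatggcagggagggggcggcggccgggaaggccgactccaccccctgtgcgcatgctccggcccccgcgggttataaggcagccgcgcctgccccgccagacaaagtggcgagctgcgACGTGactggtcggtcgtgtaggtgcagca
Oat: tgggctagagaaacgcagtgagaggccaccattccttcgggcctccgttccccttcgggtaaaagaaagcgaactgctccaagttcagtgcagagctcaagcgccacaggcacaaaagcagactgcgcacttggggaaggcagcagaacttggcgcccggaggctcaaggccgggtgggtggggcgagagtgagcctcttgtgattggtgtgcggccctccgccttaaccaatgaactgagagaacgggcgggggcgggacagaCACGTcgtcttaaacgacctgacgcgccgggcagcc
The *Ldha* window held CACGTG at bases 106 to 111 and 203 to 208, ACGTG in reverse at bases 217 to 221, and TGACGTCA at bases 239 to 246. The *Slc16a1* window held CACGTG at bases 51 to 56 and ACGTG at bases 271 to 275. The *Oat* window held ACGTG in reverse at bases 265 to 269. None of the 4 motifs was found in the windows of *Ldhb*, *Acot7* and *Cxcl12*, and TATAAA lay at bases 222 to 227 of the *Zfp36l1* window and, in reverse, of the first *Ndrg2* window. Of 32851 windows of this length, 19.6% held ACGTG, 7.15% CACGTG, 1.79% TGACGTCA and 13.6% TATAAA. In the first window of each gene, CG dinucleotides numbered 42 in *Slc16a1*, 30 in *Ldha*, 22 in *Oat*, 20 in *Cxcl12*, 17 in *Ldhb*, 15 in *Zfp36l1*, 11 in *Ndrg2* and 6 in *Acot7*, against a median of 7.0 over all windows. The *Acot7* window (from chr4:152185358) and the first *Ldha* window lie inside the annotated genes, which begin at chr4:152178100 and chr7:46842274. Their motifs and CG counts therefore describe internal starts. A match describes these letters and was not tested as a binding site.

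Array medians lay between 6.85 and 7.05. *Rptor*, the gene deleted in beta cells, fell in KO islets by its brightest probe set (log2 difference -0.72, limma adjusted p = 0.0410 over genes and 0.0769 over probe sets), which had signals of 8.59, 8.48, 9.21 and 8.73 in KO islets, against 9.53, 9.59, 9.71, 9.22 and 9.30 in WT islets. Of 2 dimmer *Rptor* probe sets, in which the groups overlapped, 1 had a difference of -0.41 (limma adjusted p = 0.795) and 1, untested, a difference of 0.65. Beta cell markers (8 tested of 10 listed) were bright on every array, with a mean between 13.23 and 13.42 in KO and between 13.84 and 14.02 in WT islets. Beside them, the mean of 12 stromal markers lay between 9.74 and 10.20 in KO and between 8.42 and 9.42 in WT islets.

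Of the 8 members, 5 were higher and 1 was lower in KO islets after adjustment over 13644 genes (limma, Benjamini-Hochberg, threshold 0.05). Over all tested genes 3.67% were called higher and 2.63% lower. *Oat*, *Ndrg2*, *Cxcl12*, *Acot7* and *Zfp36l1* rose, *Ldhb* fell, and *Ldha* and *Slc16a1* were not called. In all 5 that rose every KO array lay above every WT array, an arrangement seen in 7.43% of tested genes, and in *Ldhb* every KO array lay below, seen in 5.05%. Among the 13 member probe sets that passed the filter on dim signals, 5 were called higher and 2 lower in a fit across 26208 probe sets, in which 1.25% were called higher and 1.05% lower. With arrays centred on their medians *Acot7*, *Zfp36l1* and *Ldhb* kept their direction but were no longer called (limma adjusted p = 0.0806, 0.0831 and 0.107). Over the alternative settings in which it was tested, *Oat* was called in 18 of 20, *Ndrg2* in 17 of 19, *Cxcl12* in 16 of 19, *Zfp36l1* in 14 of 20, *Acot7* and *Ldhb* in 6 of 20 each, *Slc16a1* in 1 of 18 and *Ldha* in 0 of 20. In these bulk samples fewer cells of a type and less RNA per cell cannot be told apart.

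**Figure D1:**
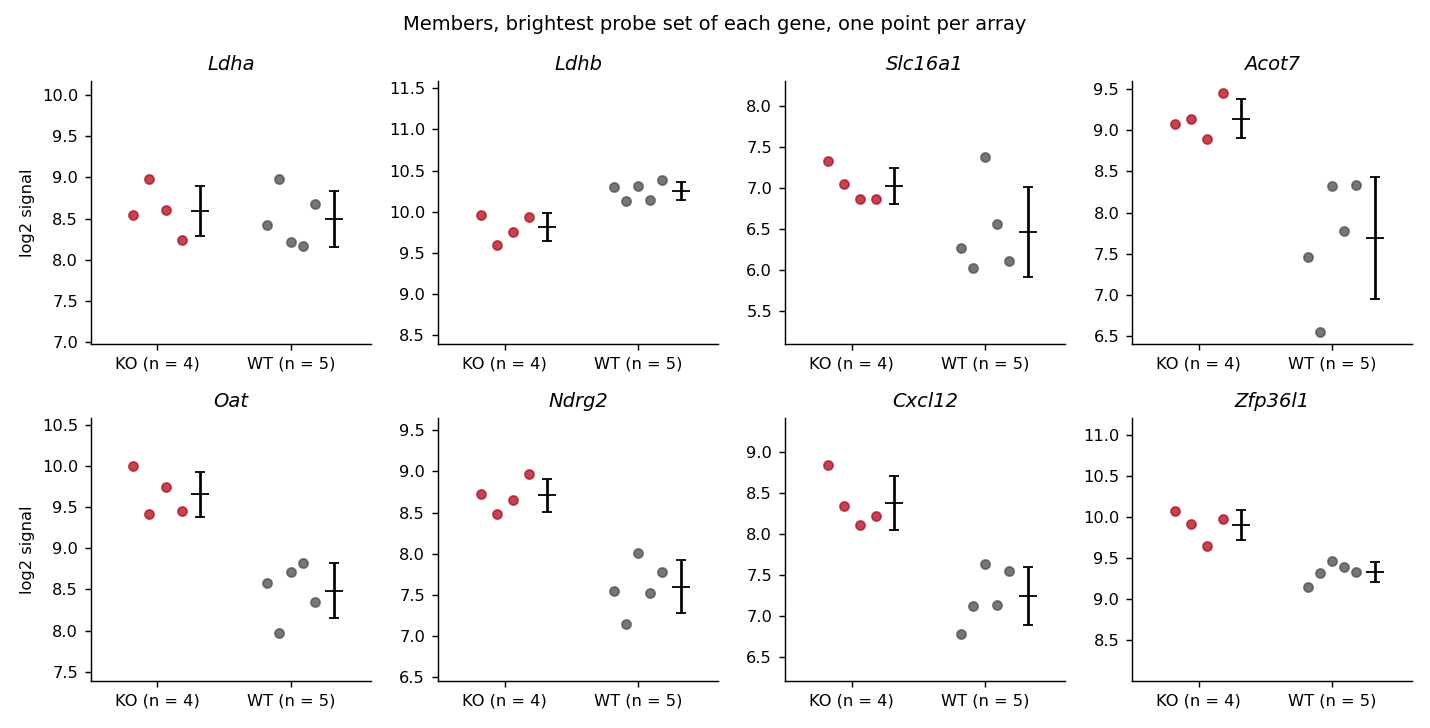
Log2 signal of the brightest probe set of each member on every array, KO left and WT right, with the mean and SD beside the points; each panel spans 3.2 log2 units. The 4 KO points lie above all 5 WT points for *Acot7*, *Oat*, *Ndrg2*, *Cxcl12* and *Zfp36l1*, below them for *Ldhb*, and among them for *Ldha* and *Slc16a1*.

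Of the 3 lactate genes, *Ldhb* was called lower in KO islets and *Ldha* and *Slc16a1* were not called with all 9 arrays; differences between these genes were not tested. *Ldha* encodes the A subunit of lactate dehydrogenase, which favours lactate formation, and had log2 signals of 8.55, 8.98, 8.61 and 8.24 in KO islets, against 8.42, 8.98, 8.21, 8.16 and 8.68 in WT islets. The highest KO and the highest WT array were level, and the groups overlapped throughout. The means were 8.60 ± 0.30 in KO islets (SD, n = 4) and 8.49 ± 0.34 in WT islets (SD, n = 5), a log2 difference of 0.10 ± 0.20 (SE, limma adjusted p = 0.826). The 95% interval of that difference ran from -0.35 to 0.56, or from 0.782-fold to 1.48-fold. Without KO replicate 2 the difference was -0.02.

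*Ldhb* encodes the B subunit, which favours the use of lactate. Its brightest probe set had log2 signals of 9.96, 9.60, 9.75 and 9.94 in KO islets, against 10.30, 10.13, 10.31, 10.14 and 10.38 in WT islets. The highest KO array was below the lowest WT array, and the means were 9.81 ± 0.17 in KO islets (SD, n = 4) and 10.25 ± 0.11 in WT islets (SD, n = 5), 1.36-fold lower in KO islets (log2 difference -0.44 ± 0.11, SE, limma adjusted p = 0.0439). All 4 *Ldhb* probe sets were lower in KO islets. The probe set 1434499_a_at had signals of 8.87, 9.18, 9.27 and 9.28 in KO islets, against 9.94, 9.50, 10.21, 9.97 and 9.97 in WT islets, and its difference was -0.77 (limma adjusted p over probe sets = 0.0449). The probe set 1448237_x_at had signals of 9.78, 9.41, 9.69 and 9.80 in KO islets, against 10.22, 10.12, 10.59, 10.27 and 10.46 in WT islets, and its difference was -0.66 (adjusted p = 0.0437, limma). In the other 2 sets the differences were -0.44 (adjusted p = 0.0888, limma) and -0.59 (adjusted p = 0.127, limma), and in the second of these the groups overlapped. Leaving out any 1 of the 9 arrays ended the call of the gene, with differences between -0.49 and -0.37 and adjusted p between 0.0593 and 0.112 (limma). The difference between log2 *Ldha* and log2 *Ldhb* on the same array was -1.42, -0.62, -1.14 and -1.69 in KO islets, against -1.88, -1.15, -2.10, -1.98 and -1.70 in WT islets, and the groups overlapped.

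**Figure D2:**
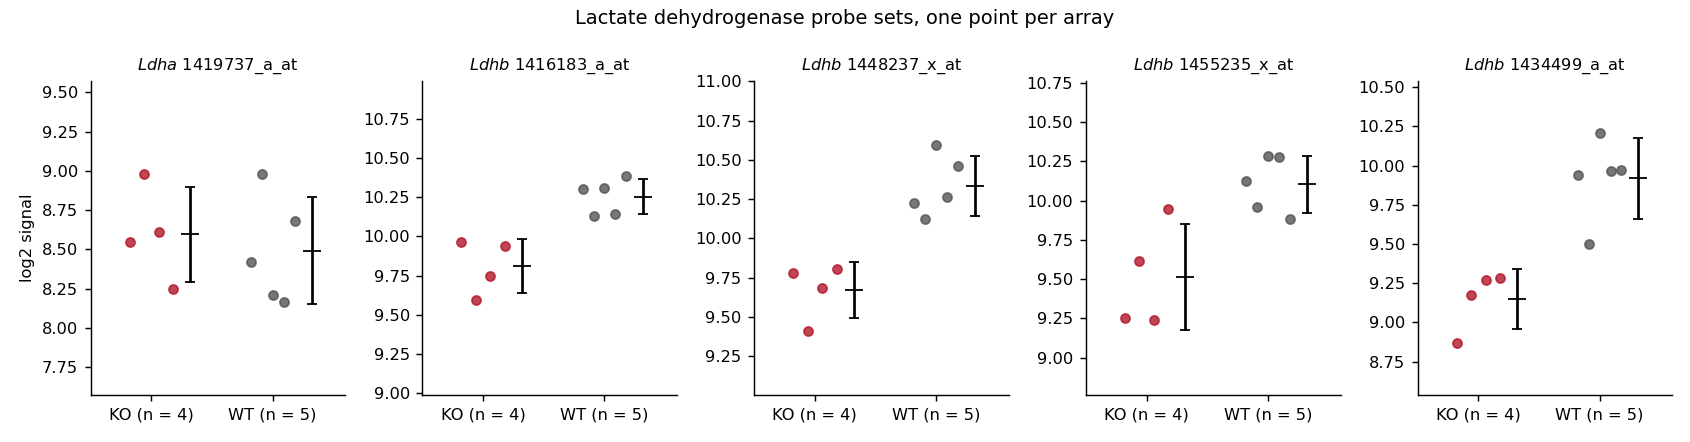
Log2 signal of the single *Ldha* probe set and the 4 *Ldhb* probe sets on every array, KO left and WT right, with the mean and SD; each panel spans 2.0 log2 units. The KO points lie below the WT points in 3 of the 4 *Ldhb* panels and overlap them in 1455235_x_at and in *Ldha*.

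*Slc16a1* had log2 signals of 7.32, 7.05, 6.86 and 6.87 in KO islets, against 6.27, 6.02, 7.38, 6.56 and 6.11 in WT islets. WT replicate 3 was above the highest KO array, and the remaining 4 WT arrays lay below all KO arrays. The log2 difference was 0.56 ± 0.27 (SE, adjusted p = 0.266, limma), with a 95% interval from -0.05 to 1.16. Without WT replicate 3 it was 0.78, with adjusted p = 0.0308 (limma). A second probe set was dim and was not tested. Among 20 other tested genes of pyruvate and lactate handling, 1 was called higher and 2 lower in KO islets (3.67% and 2.63% over all tested genes). Their median difference was 0.12, against 0.04 over all tested genes. *Emb*, encoding embigin, a partner of monocarboxylate transporters, had log2 signals of 12.22, 12.19, 12.27 and 12.29 in KO islets, against 12.79, 12.76, 12.77, 12.79 and 12.81 in WT islets. It was 1.46-fold lower in KO islets (limma adjusted p = 0.00366). *Pcx*, pyruvate carboxylase, which turns pyruvate into oxaloacetate, was 1.81-fold lower, and *Pdk1*, a kinase that inhibits pyruvate dehydrogenase, was 1.70-fold higher (limma adjusted p = 0.00378 and 0.00634).

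*Oat* encodes ornithine aminotransferase, a mitochondrial enzyme that breaks down ornithine, and had log2 signals of 10.00, 9.42, 9.75 and 9.45 in KO islets, against 8.57, 7.98, 8.71, 8.82 and 8.35 in WT islets. The lowest KO array lay clear of the highest WT array, and any single array could be left out without loss of the call. The means were 9.66 ± 0.27 in KO islets (SD, n = 4) and 8.49 ± 0.33 in WT islets (SD, n = 5), 2.25-fold higher in KO islets (log2 difference 1.17 ± 0.19, SE, limma adjusted p = 0.0106). Of 13 other tested enzymes of ornithine, proline and polyamines, 1 was called higher and 0 lower in KO islets (3.67% and 2.63% over all tested genes). Their median difference was 0.02. The 1 that rose was *Arg1*, arginase 1, which makes ornithine from arginine, by 1.86-fold (limma adjusted p = 0.0116).

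*Acot7* encodes a thioesterase that splits acyl-CoA into fatty acid and coenzyme A. It had the largest difference of the 8 and the widest spread in WT islets. Its log2 signals were 9.08, 9.14, 8.89 and 9.46 in KO islets, against 7.45, 6.54, 8.33, 7.78 and 8.34 in WT islets. WT replicate 2 was the lowest array, while WT replicates 3 and 5 came closest to the KO arrays. The means were 9.14 ± 0.23 in KO islets (SD, n = 4) and 7.69 ± 0.74 in WT islets (SD, n = 5), 2.74-fold higher in KO islets (log2 difference 1.45 ± 0.35, SE, limma adjusted p = 0.0442). The call held in 3 of the 9 fits that leave out 1 array, and was lost when any 1 KO replicate, or WT replicate 1 or 4, was left out (limma adjusted p between 0.0763 and 0.107). It was also lost with no filter, quantile normalization, averaged probe sets, the acinar covariate or the methods' t-test (adjusted values between 0.0661 and 0.0836, Benjamini-Hochberg). No other tested acyl-CoA thioesterase or synthetase was called (0 of 13, against 3.67% called higher and 2.63% lower over all tested genes). Of the 13, 4 had an unadjusted limma p under the threshold, against 2968 of all 13644 tested genes. The lowest p was that of *Acsl6*, an acyl-CoA synthetase, with a difference of 0.32 (limma adjusted p = 0.0543).

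*Ndrg2*, of the N-myc downstream regulated family, had log2 signals of 8.73, 8.48, 8.66 and 8.96 in KO islets, against 7.54, 7.14, 8.01, 7.52 and 7.78 in WT islets. WT replicate 3 was the highest WT array and still lay below every KO array. The means were 8.71 ± 0.20 in KO islets (SD, n = 4) and 7.60 ± 0.33 in WT islets (SD, n = 5), 2.16-fold higher in KO islets (log2 difference 1.11 ± 0.18, SE, limma adjusted p = 0.00897). Of its 3 relatives none was called, against 3.67% called higher and 2.63% lower over all tested genes. An unadjusted limma p under the threshold was found for 1 of the 3, and for 2968 of all 13644 tested genes. That relative was *Ndrg4*, with a difference of 0.59 (limma adjusted p = 0.0629).

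*Cxcl12* encodes a chemokine that stromal and endothelial cells release and that signals through the receptor CXCR4. The brightest probe set had log2 signals of 8.84, 8.34, 8.11 and 8.22 in KO islets, against 6.78, 7.12, 7.64, 7.13 and 7.54 in WT islets, and the second had 7.75, 7.52, 7.51 and 8.15 in KO islets, against 6.54, 6.10, 7.15, 6.48 and 6.30 in WT islets. In each the groups stayed apart, and the differences were 1.13 ± 0.21 (SE, 2.19-fold, limma adjusted p = 0.0172 over genes) and 1.22 (limma adjusted p = 0.0317 over probe sets). The remaining probe set was dim, untested, and 0.99 lower on the log2 scale in KO islets, and averaging all 3 gave 0.45 (limma adjusted p = 0.533). Of 9 tested receptors and related chemokines, 0 were called higher and 1 lower in KO islets (3.67% and 2.63% over all tested genes). That gene was *Dpp4*, a peptidase that cuts chemokines, which had log2 signals of 10.04, 10.06, 10.12 and 10.05 in KO islets, against 10.76, 10.94, 11.01, 10.88 and 11.07 in WT islets, 1.82-fold lower (limma adjusted p = 0.00110).

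*Zfp36l1* encodes a zinc finger protein that binds AU-rich elements and promotes mRNA decay. Its brightest probe set had log2 signals of 10.07, 9.91, 9.65 and 9.97 in KO islets, against 9.14, 9.31, 9.47, 9.39 and 9.33 in WT islets. The arrays of a group lay close together and the groups did not overlap. The means were 9.90 ± 0.18 in KO islets (SD, n = 4) and 9.33 ± 0.12 in WT islets (SD, n = 5), 1.48-fold higher in KO islets (log2 difference 0.57 ± 0.11, SE, limma adjusted p = 0.0201). The call was lost without KO replicate 1, 2 or 4 (limma adjusted p = 0.0666, 0.0551 and 0.0578). The second probe set, 1422528_a_at, also had every KO array above every WT array, with a difference of 0.45 (adjusted p = 0.123, limma). Of 10 tested relatives and other AU-rich element binding proteins, 2 were called higher and 0 lower (3.67% and 2.63% over all tested genes). The 2 were *Zfp36l2*, of the same family, by 1.38-fold, and *Elavl2*, an RNA-binding protein of the Hu family, by 2.42-fold (limma adjusted p = 0.0321 and 0.0363).

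The list of other disallowed genes held 15 tested genes. All 15 had a positive difference, with a median of 0.77, against 0.04 over all tested genes. Of the 15, 5 were called higher and 0 lower, against 3.67% and 2.63% of all tested genes. In 6 every KO array lay above every WT array, against 7.43% of all tested genes. The 5 were *Igfbp4*, a binding protein of insulin-like growth factors (3.58-fold), *Tgm2*, a transglutaminase (2.72-fold), *Maf*, a transcription factor (2.05-fold), *Mgst1*, a glutathione transferase (1.92-fold), and *Mylk*, myosin light chain kinase (1.51-fold), with limma adjusted p between 0.0292 and 0.0476. The list was drawn up with results of these arrays known, so its direction is not independent evidence. Leaving out KO replicate 1 or 2, or WT replicate 1 or 4, left 0 of the 15 called, and leaving out KO replicate 3 or 4, or WT replicate 2, left 1.

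**Figure D3:**
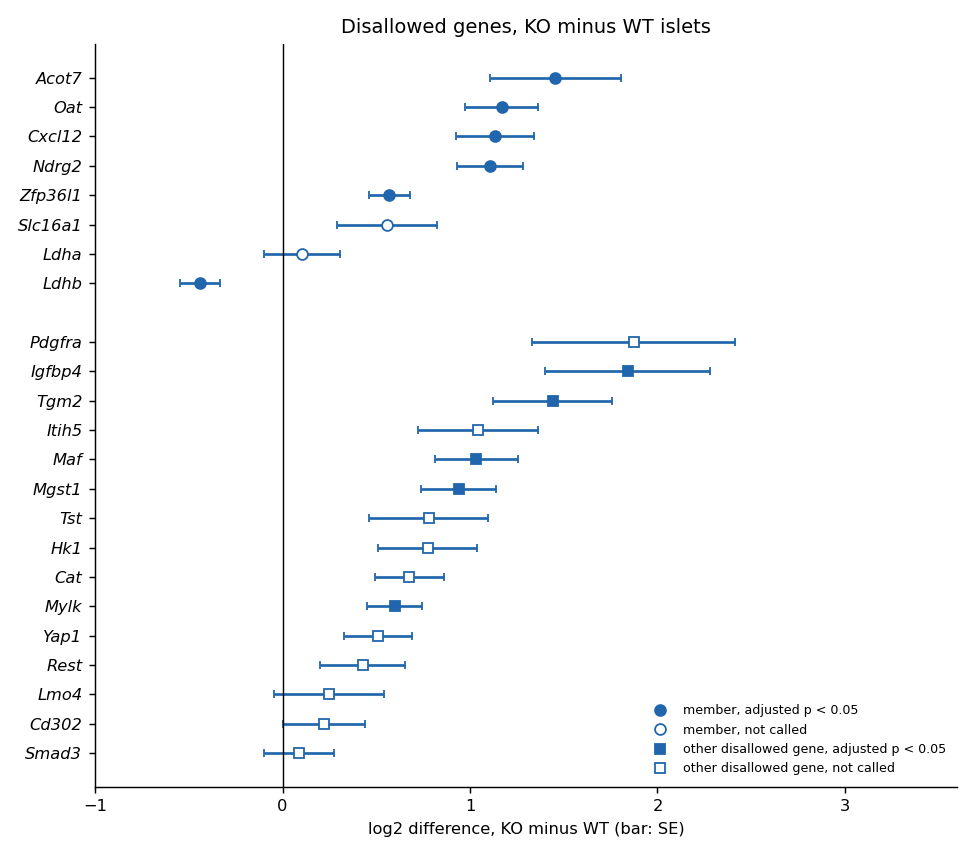
Log2 difference, KO minus WT, with its SE, for the 8 members (circles) and 15 other disallowed genes (squares), filled where the limma adjusted p is under the threshold. All 15 squares and 7 of the 8 circles lie right of 0, and *Ldhb* lies left of it.

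The mean of the stromal markers was higher in KO islets. The stromal mean was 10.20, 9.93, 9.74 and 10.03 in KO islets, against 8.54, 8.42, 9.24, 8.71 and 9.42 in WT islets. Of the 12 stromal markers 6 were called higher and 0 lower, against 3.67% and 2.63% of all tested genes. The collagen gene *Col3a1* averaged 12.99 ± 0.46 in KO islets (SD, n = 4) and 11.22 ± 0.82 in WT islets (SD, n = 5), and *Rgs5*, a pericyte marker, averaged 12.96 ± 0.30 in KO islets and 12.64 ± 0.19 in WT islets (SD, n = 4 and 5). In WT islets the order of the stromal means, replicate 2 lowest, then 1, 4, 3 and 5, was also the order of the *Acot7* signals. *Acot7* in WT replicates 3 and 5 was nearly level (8.33 and 8.34). In KO islets the orders differed: the stromal mean was highest in replicate 1 and *Acot7* in replicate 4. For the other members that rose, the order in WT islets also differed from that of the stromal means. *Oat* was highest in WT replicate 4, and *Ndrg2*, *Cxcl12* and *Zfp36l1* were highest in WT replicate 3. After the stromal mean was entered as a covariate, differences were -0.09 ± 0.41 (SE) for *Acot7* and -0.05 ± 0.52 for *Slc16a1*. They were 0.26 ± 0.28 for *Cxcl12*, 0.30 ± 0.20 for *Zfp36l1*, 0.34 ± 0.42 for *Ldha* and 0.45 ± 0.26 for *Ndrg2* (SE). That of *Oat* was 0.91 ± 0.40 and that of *Ldhb* -0.71 ± 0.19 (SE). For every member the SE was larger than without the covariate. No member was called in that fit (limma), and over all genes 3 were called higher and 2 lower. The stromal means of the groups did not overlap, so the covariate and the genotype cannot be told apart in this design, and the part of stromal RNA in the members' differences was not tested.

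**Figure D4:**
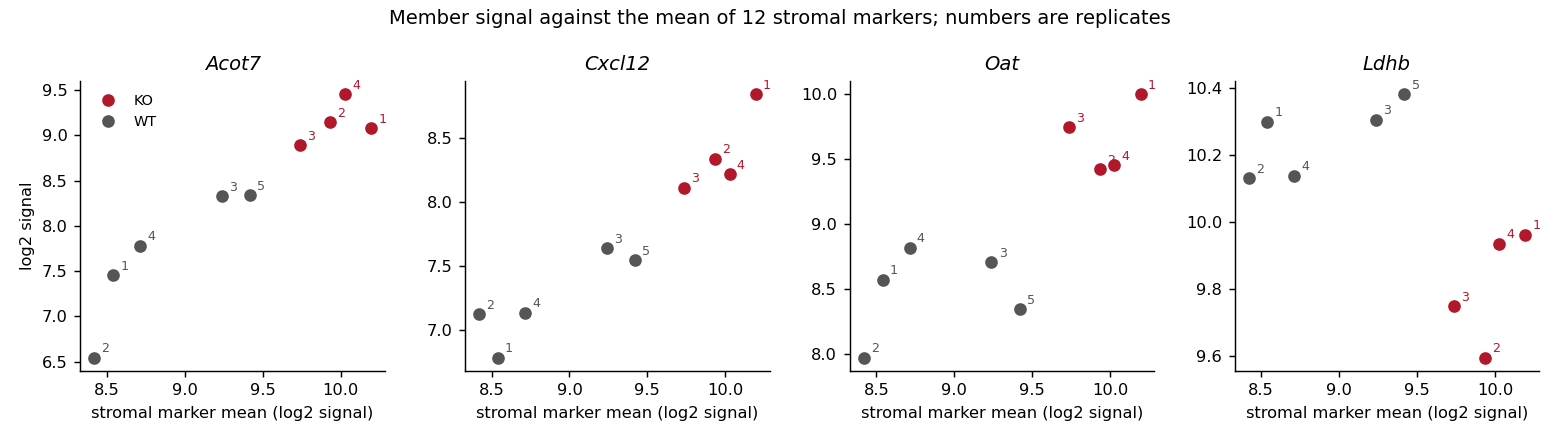
Log2 signal of *Acot7*, *Cxcl12*, *Oat* and *Ldhb* against the mean log2 signal of 12 stromal markers, 1 point per array, KO in red and WT in grey, numbered by replicate. *Acot7* has the same order as the stromal mean within WT islets but not within KO islets. *Cxcl12*, *Oat* and *Ldhb* have other orders within WT islets. *Ldhb* is lower in KO islets although the stromal mean is higher.

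**Figure D5:**
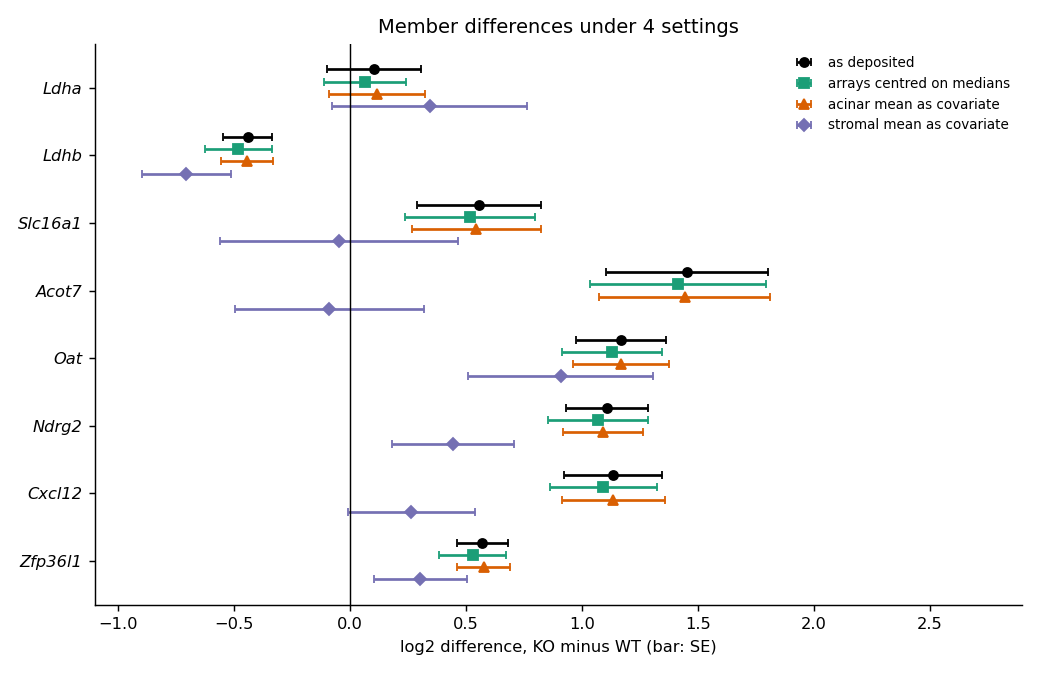
Log2 difference of each member, KO minus WT, with its SE, under 4 settings. Centring and the acinar covariate move the points by less than their SE, and with the stromal covariate *Acot7* and *Slc16a1* lie near 0 and *Ldhb* lies further from it.

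The other marker means were as follows. Schwann and glial markers (5 tested) averaged 7.13 in KO and 6.12 in WT islets, and ductal markers (3) 8.32 in KO and 7.41 in WT. Endothelial markers (10) averaged 10.03 in KO and 9.72 in WT, and delta and PP cell markers (4) 13.57 in KO and 13.27 in WT. No ductal or endothelial marker was called by limma (1 and 2 had an unadjusted p under the threshold). Over all 13644 tested genes limma called 3.67% higher and 2.63% lower, and 2968 had an unadjusted p under the threshold. In the ductal list the difference was 1.97 for the dim *Krt19*, 0.67 for *Sox9* and 0.11 for the bright *Krt7*. Of the Schwann and glial markers only *Cdh19* was called (1.26, limma adjusted p = 0.0139), and *Sox10* had a difference of -0.05. In the delta and PP list *Hhex* (0.84, limma adjusted p = 0.0155) and *Rbp4* (0.56, adjusted p = 0.0642) carried the difference, while the hormone genes *Sst* and *Ppy* had differences of -0.04 and -0.14 and were not called. In the means of these 4 lists, as in the stromal list, every KO array lay above every WT array. In the beta cell list every KO array lay below (exact two-sided permutation p = 0.0159 for each of the 6, the smallest that 4 and 5 arrays allow, adjusted 0.0238 over 9 lists). The lists were chosen with earlier results of these data known, so the permutation p-values in this paragraph are not independent evidence. Of the 8 tested beta cell markers 5 were called lower by limma: *Slc2a2*, *Nkx6-1*, *Ucn3*, *Slc30a8* and *Pdx1*. The bright *Ins2*, *Iapp* and *G6pc2* had differences of -0.05, -0.12 and -0.24 and were not called. Alpha cell markers (3) averaged 11.43 in KO and 11.17 in WT islets (exact permutation p = 0.0317, adjusted 0.0408). None of the 3 was called by limma (1 had an unadjusted p under the threshold): *Irx2* had a difference of 0.69, *Irx1* of 0.17 and the hormone gene *Gcg* of -0.10. Macrophage markers (8) averaged 9.10 in KO and 8.80 in WT islets (exact permutation p = 0.0635, adjusted 0.0714), and acinar markers (9) 11.02 in KO and 11.23 in WT (exact permutation p = 0.841). Acinar means ranged from 8.58 to 12.74 in KO and from 9.15 to 12.51 in WT islets. In each of these 2 lists limma called 1 marker higher and 0 lower. They were *C1qa* (macrophage, 0.45, limma adjusted p = 0.0491) and *Bhlha15* (acinar, 0.91, limma adjusted p = 0.00649). The 2 brightest markers of each remaining list were *Iapp* and *G6pc2* (beta), *Gcg* and *Irx2* (alpha), *Ppy* and *Sst* (delta and PP), *Cela3b* and *Ctrb1* (acinar), *Krt7* and *Krt19* (ductal), *Plvap* and *Emcn* (endothelial), *Cdh19* and *Sox10* (Schwann and glial), and *C1qa* and *Csf1r* (macrophage).

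The genes whose signals were most like those of a member over the 9 arrays included *Vim* and *Sncg* for *Acot7* (r = 0.99 and 0.98), *Lynx1* and *Serping1* for *Ndrg2* (0.99 and 0.98), and *Cdk2* and *Ppfibp1* for *Oat* (0.98 for each). They were *Stt3b* and *Eif3f* for *Cxcl12* (0.98 and 0.97), *Stt3b* and *Scara3* for *Zfp36l1* (0.98 and 0.97), *Dennd4c* and *Cd164* for *Ldhb* (0.99 and 0.97), *Arhgef19* and *Zfp36* for *Ldha* (0.93 and 0.92), and *Igdcc4* and *Sstr3* for *Slc16a1* (0.96 for each). These are Pearson coefficients, the highest among 13644 genes, over arrays that also share the genotype difference.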

How the data were processed

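Total RNA from hand-picked islets was labelled with a 3′ in vitro transcription kit and hybridised to 9 Affymetrix arrays. The authors deposited log2 signals for 45037 probe sets, and Genespring is named for the analysis. How probes were summarised and scaled is not given in the sources used here. On every array the trimmed mean of the linear signal was 497.1 to 497.7, and 43 to 107 values per array lay at a floor. Probe sets paired with several genes (932) or with none (9160) were not used.

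Values were used as deposited. A gene was represented by its brightest probe set, and the dimmest 0.25 of genes was left out. The 4 KO arrays were set against the 5 WT arrays in limma 3.58.1 under R 4.3.3 (two-sided, lmFit then eBayes), with Benjamini-Hochberg adjustment over all tested genes or probe sets. Marker means were compared with scipy 1.17.1 in Python 3.11.15. The scripts were tested on simulated data. The limma p-values set the group difference against the spread between pools of animals, with information on spread shared over genes. Spread between single animals was not measured, and the number of arrays limits the precision. No scan date or batch entered the analysis.

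The members and lists were chosen with earlier results of these data known. Named were the members, *Rptor*, from each list at most 4 called genes (ranked by p, or the top 1 where none was called; *Mylk*, a further call of its list, was added after its values were seen), the 2 genes most like each member, and the 2 brightest markers of each list. Alternatives covered filters, normalization, probe set averaging, a floor of 6, trend and robust estimation, the methods' t-test, marker covariates, the replicate number and leaving out each array. Markers beyond the 2 brightest were also named in some lists. The planned comparison of protein sequences was not run.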

Additional observations from a re-analysis of the deposited data

How the results depend on the processing

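The values below are counts in KO against WT islets. For members called higher (5 as reported), 3 were called with the dimmer 0.5 of genes left out, a filter that removed *Ndrg2*, *Cxcl12* and *Slc16a1* from the test and left *Oat*, *Acot7* and *Zfp36l1* called. Centring arrays on their medians gave 3, averaging probe sets 3 and the stromal covariate 0; leaving out 1 array gave 3 to 6. For members called lower (1), no filter, centring, the stromal covariate and the acinar covariate gave 0, and so did leaving out any array (0 to 0). Other disallowed genes called higher (5) numbered 0 without a filter, with averaging, with the methods' t-test and with the stromal covariate, 1 with centring and 3 with the acinar covariate, and 0 to 6 when 1 array was left out. Member probe sets called higher (5) numbered 2 without a filter, 1 with centring, 2 with quantile normalization, 3 with the t-test, 0 with the stromal and 3 with the acinar covariate, and 0 to 4 when 1 array was left out. Member probe sets called lower (2) numbered 0 without a filter, with centring and with the stromal or acinar covariate, 4 with trend and robust estimation and 1 with the t-test, and 0 to 1 when 1 array was left out. Over all genes, 501 were higher as reported, 239 without a filter, 214 with centring, 183 with averaging, 3 with the stromal covariate and 191 to 496 when 1 array was left out. Those lower numbered 359, against 213 without a filter, 134 with averaging, 545 with trend and robust estimation, 2 with the stromal covariate and 179 to 305 when 1 array was left out. The sign turned for *Slc16a1* (-0.0477) and *Acot7* (-0.0902) with the stromal covariate and for *Ldha* (-0.0239) without KO replicate 2, with a range of -0.0239 to 0.227 over the arrays left out. The cause was not tested. By the methods' t-test without adjustment, 5 members were higher and 1 lower, against 1731 and 1214 of all 13644 tested genes. With the 1.5-fold threshold of the study's array plots as well, 4 and 0 members passed, against 761 and 333 of all tested genes. After Benjamini-Hochberg adjustment the t-test called 4 and 1 members, against 362 and 355 of all tested genes.

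Deviations of same-numbered KO and WT arrays from their group means correlated weakly over the tested genes (-0.04, 0.09, 0.12 and -0.03). So few pairs cannot show whether arrays of the same number shared a batch, and this was not tested. With the replicate block, 0 members were called higher and 0 lower, 0 other disallowed genes, 0 member probe sets in either direction, and 33 genes higher and 28 lower. KO replicates 2 and 3 correlated best with the WT array of their own number, and KO replicates 1 and 4 did not. WT replicate 5 has no partner and adds nothing to that difference.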
